A study of Mus musculus with 6 samples.

Results

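TGF-beta ligands and matricellular proteins were followed as 10 genes: the ligands Tgfb1, Tgfb2 and Tgfb3, the latent TGF-beta binding protein Ltbp2, and Postn, Spp1, Thbs1, Thbs4, Fn1 and Tnc. They were chosen by name and were 10 of the 54532 genes measured. Values of single hearts are given in the order of replicates 1, 2 and 3. RNA of heart tissue was sequenced from 3 control mice (Ctrl, Mrps5 fl/fl) and 3 conditional knockout mice (cKO, Mrps5 fl/fl; MCM). MCM is the tamoxifen-inducible Cre recombinase MerCreMer, driven here by the alpha-myosin heavy chain promoter, which is active in cardiomyocytes. The mice of both genotypes received tamoxifen at 8 weeks of age, at 45 mg per kg per day over 5 days, and the labels place sampling 12 weeks after it, whereas the study's methods call the mice 12-week-old. Both groups thus carried the loxP-flanked Mrps5 alleles and had tamoxifen. No heart had MerCreMer without those alleles, so loss of Mrps5 and the activated recombinase cannot be told apart.

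TGF-beta ligands are secreted as inactive complexes held in the matrix by latent TGF-beta binding proteins. Once released, they bind the type II receptor TGFBR2, which activates the type I receptor TGFBR1, and SMAD2 and SMAD3 then carry the signal to the nucleus with SMAD4. In the heart the pathway is known for turning fibroblasts into matrix-producing myofibroblasts. Matricellular proteins such as periostin, osteopontin, the thrombospondins and tenascin C sit in the matrix without being its main scaffold, are low in the healthy adult heart, and are known to return in injured or overloaded myocardium.

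Between 15989322 and 24875499 reads per library fell in genes, with overlap between the genotypes. Mrps5 stood at 5.20, 6.45 and 6.33 FPKM (fragments per kilobase of gene, scaled to a library size) across the Ctrl hearts, against 1.12, 1.23 and 1.31 FPKM across the cKO hearts. The library size implied by the deposited values was 0.980, 0.913 and 0.972 times the reads in genes across the Ctrl hearts. It was 1.06 times those reads in each cKO heart, so the deposited scaling differed between the genotypes. Cardiomyocyte markers such as Tnnt2 and Myh6 were high in every heart, their 10-gene sum ranging from 12492 to 24684 FPKM. The study's animals were described as male, but cKO replicate 2 had 4 Y-linked genes at 0 and Xist at 10.7 FPKM. Atrial markers varied within groups, their 6-gene sum being 1026, 151 and 30.1 FPKM in Ctrl, against 111, 232 and 762 FPKM across the cKO hearts. Results are therefore also given without Ctrl replicate 1 and cKO replicate 2, which is an alternative chosen after seeing the data.

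Of the 10 genes, 7 rose in cKO hearts and 0 fell: Tgfb2, Ltbp2, Postn, Spp1, Thbs1, Thbs4 and Tnc. Among all 12944 genes tested, 16.3% rose and 17% fell, 33.3% in all (limma on log2(FPKM + 1), Benjamini-Hochberg adjusted p under 0.05). These shares were 2110 and 2205 genes, and became 2717 and 1609 when mtDNA-encoded genes were left out of the scaling, with 7 of the 10 genes still higher. That setting, here and below, scaled each heart to its reads outside mtDNA-encoded genes, in place of the deposited library size. It thus changed both the genes counted and the size used, and these were not tested apart. The mtDNA-encoded genes held 19.8% to 22.0% of reads in Ctrl and 16.2% to 18.7% in cKO hearts. Tgfb1, Tgfb3 and Fn1 did not pass the threshold. The same 7 genes were those with every cKO heart above every Ctrl heart, as was the case for 24.8% of all genes tested, 26.4% had every cKO heart below, and 51.2% did not overlap in either direction. The median log2 fold change of the 10 genes was 1.01, and that of all genes tested was -0.02. The summed FPKM of the 10 genes was 30.2, 23.0 and 24.0 in Ctrl and 59.8, 58.3 and 50.5 in cKO replicates 1, 2 and 3, with group means of 25.7 ± 3.88 and 56.2 ± 5.00 (SD, n = 3 each; exact permutation p 0.1, two-sided, the smallest that 3 against 3 hearts allow). All 10 genes reached the minimum for testing, an average of 0.5 FPKM over the hearts, but Tnc reached it only through the cKO hearts. When Ctrl replicate 1 and cKO replicate 2 were both left out, 6 of the 10 rose, Spp1 then missing the threshold (adjusted p 0.0633).

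**Figure D1:**
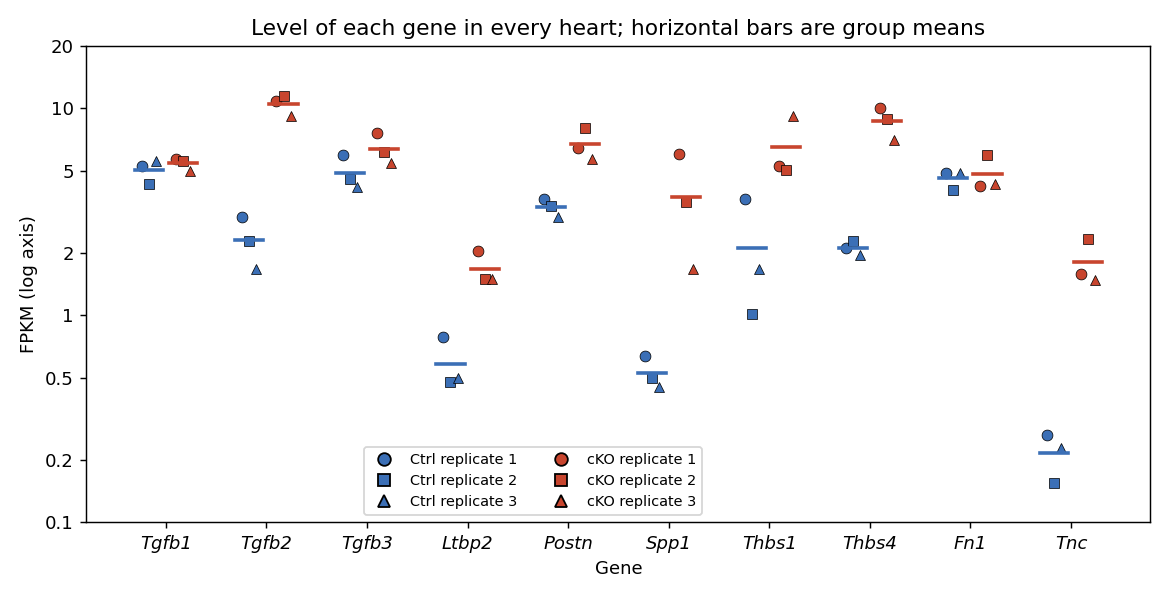
FPKM (log axis) of the 10 genes in each of the 3 Ctrl (blue) and 3 cKO (red) hearts, with the marker shape giving the replicate and horizontal bars the group means. Tgfb2, Ltbp2, Postn, Spp1, Thbs1, Thbs4 and Tnc are higher in every cKO heart than in any Ctrl heart, whereas the groups overlap for Tgfb1, Tgfb3 and Fn1.

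Among the ligands only Tgfb2 rose past the threshold. TGF-beta 2, known for its part in heart development and in endothelial to mesenchymal transition, is encoded by Tgfb2 (ENSMUSG00000039239, chromosome 1, 186622792 to 186705989, minus strand). It stood at 3.00, 2.28 and 1.68 FPKM across the Ctrl hearts, against 10.9, 11.4 and 9.14 FPKM across the cKO hearts. The lowest cKO heart was 3.05 times the highest Ctrl heart. The group means were 2.32 ± 0.661 and 10.5 ± 1.20 FPKM, a ratio of 4.52, and the log2 change came to 1.80 (SE 0.16, limma adjusted p 0.000928). A larger log2 change came to found for 0.51% of all genes tested. Its values came from 235 to 331 reads in Ctrl and from 1065 to 1547 reads in cKO hearts.

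Tgfb1 (chromosome 7, 25687002 to 25705077), the ligand most often linked to fibrosis, stood at 5.28, 4.32 and 5.55 FPKM across the Ctrl hearts, against 5.71, 5.54 and 4.99 FPKM across the cKO hearts. Of the cKO hearts, replicates 2 and 3 lay within the range of the Ctrl hearts and replicate 1 just above it. Its log2 change came to 0.09, with a 95% interval from -0.15 to 0.33 (limma adjusted p 0.536). Tgfb3 (chromosome 12, 86056745 to 86079041) stood at 5.94, 4.53 and 4.15 FPKM across the Ctrl hearts, against 7.58, 6.11 and 5.45 FPKM across the cKO hearts. Only Ctrl replicate 1 reached into the cKO range, and the change of 0.33 (95% interval -0.02 to 0.68, adjusted p 0.128) did not pass. Tgfb3 overlaps Ttll5 on the opposite strand (0.769 FPKM on average), and whether counting used strand was not given in the sources used here.

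The makeup of the ligand pool was compared in each heart. Per kilobase of gene, Tgfb2 made up 21.1%, 20.5% and 14.7% of the summed Tgfb1, Tgfb2 and Tgfb3 level in Ctrl and 45.0%, 49.5% and 46.7% in cKO replicates 1, 2 and 3. It was the least abundant ligand in each Ctrl heart and the most abundant in each cKO heart. The ratio of Tgfb2 to Tgfb1 was 0.466 ± 0.143 in Ctrl and 1.93 ± 0.120 in cKO (SD, n = 3 each; exact permutation p 0.1, Benjamini-Hochberg adjusted 0.109 over 12 such per-heart quantities). The summed level of the ligands was 12.2 ± 1.71 FPKM in Ctrl and 22.3 ± 2.39 FPKM in cKO.

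**Figure D2:**
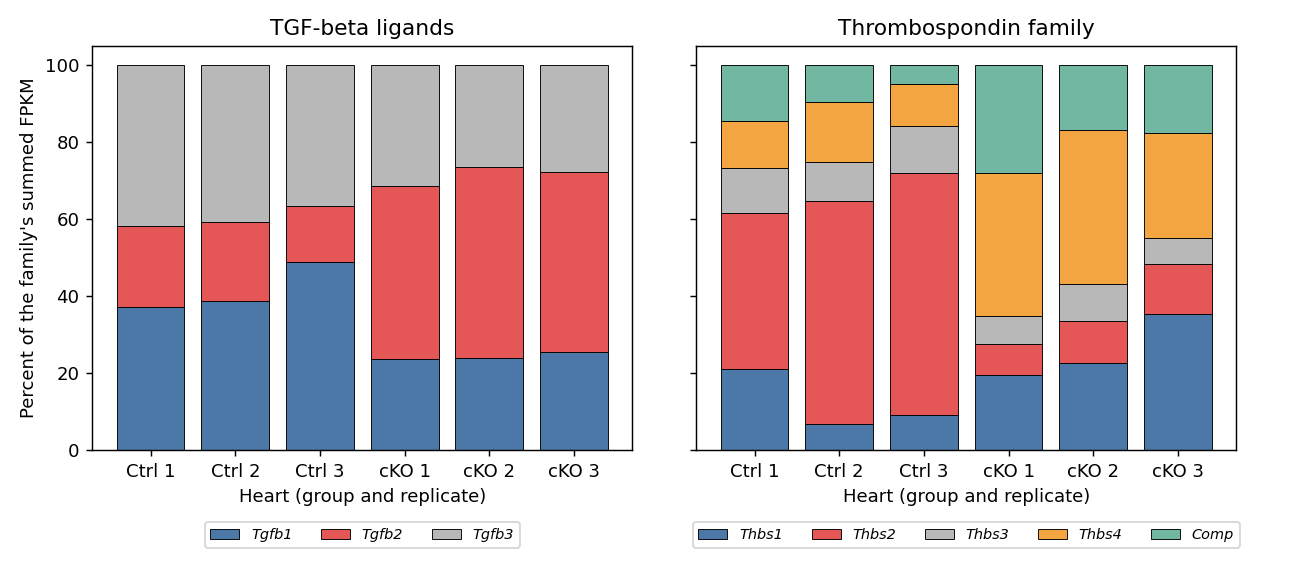
Share of each gene in the summed FPKM of the TGF-beta ligands (left) and of the thrombospondin family (right), in percent on the vertical axis, with 1 bar for each of the 6 hearts. Tgfb2 goes from 14.7% to 21.1% of the ligand level in Ctrl to 45.0% to 49.5% in cKO hearts, and Thbs2 from 40.5% to 62.8% of the thrombospondin level to 8.06% to 12.9%.

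Ltbp2 (chromosome 12, 84783212 to 84876532), a fibrillin-associated matrix protein that unlike its relatives does not hold latent TGF-beta, stood at 0.782, 0.476 and 0.495 FPKM across the Ctrl hearts, against 2.04, 1.497 and 1.496 FPKM across the cKO hearts. Its group means were 0.584 ± 0.171 and 1.68 ± 0.316 FPKM, a ratio of 2.87, and the log2 change came to 0.76 (SE 0.12, limma adjusted p 0.00488). None of the other latent TGF-beta binding proteins passed the threshold as higher. Ltbp1 fell from 5.02 ± 0.274 to 2.60 ± 0.299 FPKM (adjusted p 0.00195) and Ltbp4, the most abundant of them, fell from 67.7 ± 3.44 to 46.5 ± 5.10 FPKM (adjusted p 0.00777). Ltbp3 was at 9.61 ± 0.599 and 10.9 ± 1.08 FPKM (adjusted p 0.218).

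Of the matricellular genes, Thbs4 had the smallest adjusted p. Thrombospondin 4, a calcium-binding protein of the matrix and the endoplasmic reticulum that is known to be induced in overloaded myocardium, is encoded by Thbs4 (chromosome 13, 92751590 to 92794818). It stood at 2.11, 2.30 and 1.96 FPKM across the Ctrl hearts, against 10.04, 8.91 and 7.06 FPKM across the cKO hearts. The Ctrl hearts lay close together and each cKO heart was at least 3.08 times the highest of them. The log2 change came to 1.62 (SE 0.12, limma adjusted p 0.000589), with a ratio of means of 4.09.

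Thbs1 (chromosome 2, 118111876 to 118127133) encodes thrombospondin 1, which can release TGF-beta from its latent complex. It stood at 3.65, 1.01 and 1.67 FPKM across the Ctrl hearts, against 5.28, 5.01 and 9.21 FPKM across the cKO hearts. The Ctrl hearts differed among themselves by 3.61 times, the widest spread of the 10 genes in that group, and Ctrl replicate 1 approached the lower cKO hearts. The log2 change came to 1.31 (SE 0.33, limma adjusted p 0.0236). The call was lost without Ctrl replicate 2 (adjusted p 0.0662), Ctrl replicate 3 (0.0744) or cKO replicate 3 (0.0630), and without the filter on low values (0.0684).

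Of the other thrombospondins, Thbs2 fell and Comp rose. Thbs2, whose product binds matrix metalloproteinases and limits vessel growth, fell from 8.96 ± 2.21 to 2.67 ± 0.618 FPKM (log2 fold change -1.43, limma adjusted p 0.00255), and was the most abundant family member in each Ctrl heart. Comp, the thrombospondin of cartilage and tendon, rose from 1.60 ± 0.817 to 5.30 ± 2.03 FPKM (adjusted p 0.0148, and 0.0504 without Ctrl replicate 2). Thbs3 was at 1.91 ± 0.373 and 1.93 ± 0.192 FPKM (adjusted p 0.926). The summed level of the 5 family members was 16.7 ± 1.77 FPKM in Ctrl and 25.1 ± 2.51 FPKM in cKO hearts (exact permutation p 0.1, adjusted 0.109 over the same 12 quantities).

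Tnc and Spp1 had the largest ratios of group means. Tenascin C, an anti-adhesive matrix protein of wound borders, is encoded by Tnc (chromosome 4, 63959785 to 64047015). Its level was 0.263, 0.155 and 0.229 FPKM in Ctrl, from 25 to 43 reads a heart,, against 1.58, 2.34 and 1.48 FPKM across the cKO hearts, from 208 to 425 reads. The lowest cKO heart was 5.64 times the highest Ctrl heart, and the ratio of means was 8.36. Because 1 FPKM is added before the logarithm, the log2 fold change of 1.19 (SE 0.13, limma adjusted p 0.00154) is much smaller than this ratio, and rose to 2.58 when 0.1 FPKM was added instead and to 3.07 by voom on recovered reads.

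Osteopontin, an RGD-containing ligand of integrins and CD44 made by macrophages and activated fibroblasts, is encoded by Spp1 (chromosome 5, 104435118 to 104441050). It was at 0.637, 0.496 and 0.452 FPKM in Ctrl, from 17 to 20 reads a heart, against 6.02, 3.51 and 1.66 FPKM across the cKO hearts, from 69 to 168 reads. The cKO hearts differed by 3.62 times among themselves, the widest spread of the 10 genes in that group, yet the lowest was 2.61 times the highest Ctrl heart. The ratio of means was 7.07 and the log2 fold change 1.52 (SE 0.32, limma adjusted p 0.0118), or 2.44 when 0.1 FPKM was added instead and 2.56 by voom.

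Postn (chromosome 3, 54361109 to 54391037) encodes periostin, a protein of activated cardiac fibroblasts that promotes collagen cross-linking. It stood at 3.65, 3.38 and 2.98 FPKM across the Ctrl hearts, against 6.44, 8.01 and 5.68 FPKM across the cKO hearts, a ratio of means of 2.01. The lowest cKO heart was 1.56 times the highest Ctrl heart, and the log2 change came to 0.82 (SE 0.12, limma adjusted p 0.00401). Fn1 (chromosome 1, 71585520 to 71653200), the gene of fibronectin, on which other matrix proteins assemble, stood at 4.87, 4.05 and 4.84 FPKM across the Ctrl hearts, against 4.22, 5.93 and 4.30 FPKM across the cKO hearts. Only cKO replicate 2 lay above the Ctrl range, and the change of 0.05 (95% interval -0.26 to 0.36, adjusted p 0.797) turned negative, to -0.08, without that heart.

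**Figure D3:**
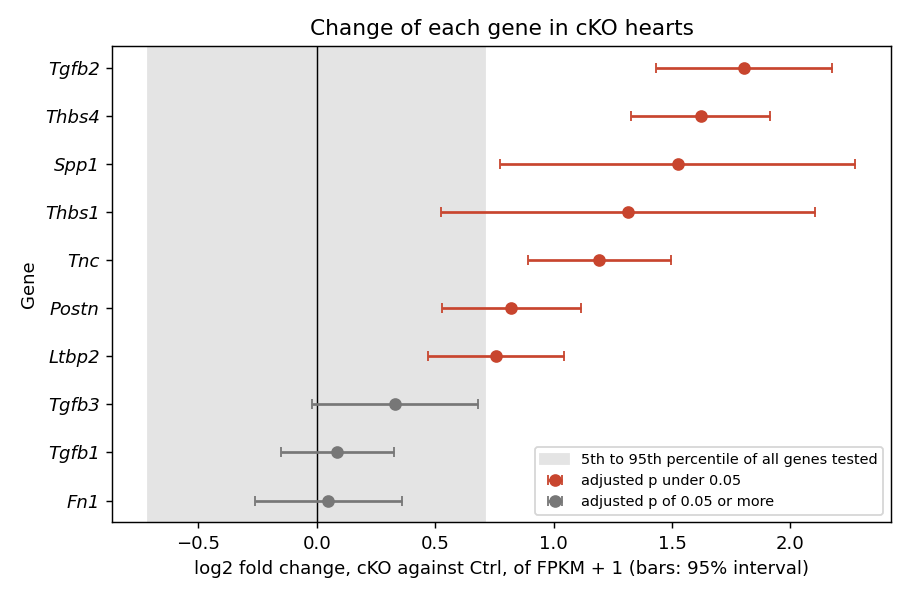
Log2 fold change of FPKM + 1 in cKO against Ctrl hearts for each of the 10 genes, with the 95% interval from limma, red where the adjusted p is under 0.05. The grey band spans the 5th to the 95th percentile of all 12944 genes tested, from -0.71 to 0.71, and the 7 red points lie above it, from 0.76 for Ltbp2 to 1.80 for Tgfb2.

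The order of the levels, which FPKM gives per kilobase of gene, differed between the groups. In Ctrl hearts the order of the means was Tgfb1, Tgfb3, Fn1, Postn, Tgfb2, Thbs4, Thbs1, Ltbp2, Spp1 and Tnc. The ranges of neighbours in it overlapped except between Fn1 and Postn, between Thbs1 and Ltbp2 and between Spp1 and Tnc. In cKO hearts the order was Tgfb2, Thbs4, Postn, Thbs1, Tgfb3, Tgfb1, Fn1, Spp1, Tnc and Ltbp2, with every pair of neighbours overlapping.

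Within the groups the genes shared some of their spread. Ctrl replicate 1, the Ctrl heart with the most atrial marker RNA, had the highest Ctrl value for 8 of the 10 genes. Among cKO hearts, replicate 3 had the lowest value for 8 of the 10, although it had the highest atrial sum of that group, and for Thbs1 it had the highest. No gene of the 10 had its lowest Ctrl value in replicate 1. The same counts over all genes tested are not given here, so a trait of the 10 genes cannot be told from a shift of a whole library. The coefficient of variation in cKO hearts ran from 6.91% for Tgfb1 to 58.6% for Spp1.

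For Tgfb2, the gene of the 10 with the largest log2 fold change, the 3 most similar patterns among 5511 other protein-coding genes averaging 5 FPKM or more were those of Ftsj3, Rpl38 and Seh1l. Pearson's r over the 6 hearts was 0.999, 0.998 and 0.997, values that mostly reflect the split between the groups. Rpl38, a protein of the large cytosolic ribosomal subunit, stood at 209, 198 and 185 FPKM across the Ctrl hearts, against 287, 282 and 269 FPKM across the cKO hearts. Ftsj3 encodes a ribosomal RNA processing factor and Seh1l a nuclear pore protein.

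Because several of the genes moved together, their promoters were compared. RefSeq promoters of 300 bases (250 before and 50 after the start, GRCm38.p6) were found for 7 of the 10 genes, Tgfb3, Thbs1 and Fn1 having no entry. Postn, Spp1 and Tnc had 2 promoters listed each, of which a single entry was searched and counted. The motifs searched on both strands were CAGAC, the SMAD-binding core, TGANTCA, bound by AP-1, TATAAA, the TATA box, and TGATGNAA, bound by ATF4 with its partners. The promoters of the 4 genes with the largest ratios of means are shown, with every match in capitals.
Tnc, chr4:64046966-64047265, minus strand: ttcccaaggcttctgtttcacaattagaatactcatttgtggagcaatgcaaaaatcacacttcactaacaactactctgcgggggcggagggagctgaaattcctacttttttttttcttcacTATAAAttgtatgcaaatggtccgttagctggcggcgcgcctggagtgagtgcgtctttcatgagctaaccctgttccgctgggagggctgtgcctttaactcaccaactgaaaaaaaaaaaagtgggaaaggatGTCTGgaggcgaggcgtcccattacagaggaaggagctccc
Spp1, chr5:104434861-104435160, plus strand: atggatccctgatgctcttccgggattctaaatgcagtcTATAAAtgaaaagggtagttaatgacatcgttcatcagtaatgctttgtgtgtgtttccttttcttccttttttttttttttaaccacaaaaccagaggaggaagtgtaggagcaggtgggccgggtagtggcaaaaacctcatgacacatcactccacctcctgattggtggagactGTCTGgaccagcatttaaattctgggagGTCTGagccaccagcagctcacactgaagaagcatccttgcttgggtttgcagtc
Tgfb2, chr1:186705940-186706239, minus strand: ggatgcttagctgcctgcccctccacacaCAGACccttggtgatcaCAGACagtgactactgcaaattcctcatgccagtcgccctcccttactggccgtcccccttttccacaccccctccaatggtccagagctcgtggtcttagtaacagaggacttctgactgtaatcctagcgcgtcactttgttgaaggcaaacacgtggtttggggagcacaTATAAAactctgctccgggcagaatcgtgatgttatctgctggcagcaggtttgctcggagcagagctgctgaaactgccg
Thbs4, chr13:92794769-92795068, minus strand: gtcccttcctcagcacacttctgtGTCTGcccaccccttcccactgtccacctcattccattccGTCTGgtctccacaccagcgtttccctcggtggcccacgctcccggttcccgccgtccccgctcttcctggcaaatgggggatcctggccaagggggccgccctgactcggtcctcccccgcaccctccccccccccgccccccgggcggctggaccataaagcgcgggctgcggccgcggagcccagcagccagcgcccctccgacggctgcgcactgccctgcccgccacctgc

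CAGAC or its complement GTCTG stood in 5 of the 6 promoters found for genes that rose, those of Tgfb2, Ltbp2, Spp1, Thbs4 and Tnc, and in 49.5% of 32544 mouse promoters of the same length. TATAAA stood in 4 of these 6, against 13.6% of all. In Tgfb2 it began at position -31 from the start and in Postn at -26, whereas in Spp1 and Tnc it lay farther away, at -211 and -126. TGANTCA and TGATGNAA were in none of the 6, and were in 7.79% and 3.91% of all promoters. The promoter of Tgfb1, which did not pass the threshold, held none of the 4 motifs. No 2 matches overlapped in the promoters shown.

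The rest of the pathway was examined through lists chosen by role. Counted once each, 86 genes were listed, 73 of them passed the filter, and 15 rose and 18 fell. Of all genes tested 16.3% rose and 17% fell, the shares to set beside each count of listed genes or markers below. The balance turned to 20 higher and 13 lower under the scaling to reads outside mtDNA-encoded genes. None of the 5 receptors passed as higher, by limma before adjustment (0 genes) or by voom on recovered reads (0 genes). Tgfbr1 was at 3.55 ± 0.230 FPKM in Ctrl and 3.43 ± 0.631 FPKM in cKO (limma adjusted p 0.788). Tgfbr2 was at 10.5 ± 1.65 and 8.64 ± 0.828 FPKM (adjusted p 0.164). Tgfbr3, or betaglycan, which presents TGF-beta 2 to the signalling receptors, was at 10.2 ± 1.69 and 6.78 ± 1.71 FPKM, just short of the threshold (adjusted p 0.0650, with 0.0460 by voom on recovered reads). The endothelial receptor genes Eng and Acvrl1 fell to 0.736 and 0.784 times the Ctrl mean (adjusted p 0.0312 and 0.0228). Eng kept its call only when Ctrl replicate 2 was the heart left out, and Acvrl1 only when Ctrl replicate 2 or cKO replicate 2 was, their adjusted p values otherwise reaching 0.0889 and 0.0775. Both calls were also lost when mtDNA-encoded genes were left out of the scaling (0.0880 and 0.0836), and that of Eng without the filter (0.0681).

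None of 11 SMADs and direct regulators passed in either direction by limma. Before adjustment, 4 had a p under 0.05, Smad3 and Skil being higher and Smad6 and Smad7 lower, and by voom on recovered reads 1 was higher (Skil) and 0 lower. Smad7, the inhibitory SMAD induced by TGF-beta itself, was at 4.83 ± 0.719 and 3.50 ± 0.851 FPKM (adjusted p 0.110). Smad2, Smad3 and Smad4 had log2 fold changes of 0.03, 0.18 and 0.00. Smad3 passed as higher under the scaling to reads outside mtDNA-encoded genes (limma adjusted p 0.0466, against 0.110 with the deposited scaling). Of 12 tested genes of latency and activation, 0 rose and 3 fell, which were Ltbp1, Ltbp4 and Furin, the protease that cleaves the TGF-beta precursor. Furin was at 19.9 ± 4.10 and 12.0 ± 3.06 FPKM (adjusted p 0.0420), and lost its call without Ctrl replicate 2 (0.0973), Ctrl replicate 3 (0.121), cKO replicate 2 (0.0721) or cKO replicate 3 (0.0742), without the filter (0.104), and when mtDNA-encoded genes were left out of the scaling (0.0671).

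Listed genes known to respond to TGF-beta mostly rose. Of 12 tested, 9 rose and 1 fell, with a median log2 fold change of 0.86, where 16.3% of all genes tested rose and 17% fell. The list was chosen with earlier results of these data known, so its count is no test of a TGF-beta response. Timp1, an inhibitor of matrix metalloproteinases, stood at 10.1, 4.82 and 7.91 FPKM across the Ctrl hearts, against 92.7, 40.7 and 43.2 FPKM across the cKO hearts, with no overlap (log2 fold change 2.74, limma adjusted p 0.00272). Ctgf, a matricellular growth factor modulator, was at 29.0 ± 8.73 and 50.2 ± 9.01 FPKM (adjusted p 0.0344), and lost its call without Ctrl replicate 2 (0.0853), Ctrl replicate 3 (0.0923), cKO replicate 2 (0.0781) or cKO replicate 3 (0.0961). The collagen gene Col3a1 was also among those that rose (log2 fold change 1.57). Tgfbi, named for its induction by TGF-beta, was the gene that fell, to 0.772 times the Ctrl mean (adjusted p 0.0438), a call that held only in the leave-out fit without cKO replicate 3 (otherwise 0.0606 to 0.129), and was also lost when mtDNA-encoded genes were left out of the scaling (0.110) or without the filter (0.0916). Many of these genes respond to other signals as well.

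Other matricellular and small matrix proteins fell more often than they rose, 8 against 2 of 16 tested, where 17% of all genes tested fell and 16.3% rose. Besides Comp, Wisp1 rose, a CCN family member that went from 0.537, 0.0950 and 0.134 FPKM in Ctrl to 1.34, 1.79 and 2.16 FPKM in cKO replicates 1, 2 and 3 (limma adjusted p 0.00365) and passed the filter only through the cKO hearts. Nov, another CCN gene, fell from 1.79 ± 0.495 to 0.671 ± 0.334 FPKM (adjusted p 0.0216). Tnxb, the tenascin of loose connective tissue, fell from 15.2 ± 2.08 to 9.02 ± 2.11 FPKM (adjusted p 0.0186). Nov lost its call without Ctrl replicate 1 (0.0635), Ctrl replicate 3 (0.0606) or cKO replicate 1 (0.0518), and Tnxb without Ctrl replicate 3 (0.0625) or cKO replicate 1 (0.0509). Tnc and Tnxb, both tenascins, thus moved in opposite directions, and Tnr and Tnn were at or under 0.0541 FPKM in each heart.

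Among receptors for these proteins, 3 of 10 tested rose and 2 fell, where 16.3% of all genes tested rose and 17% fell. Itga5, which pairs with Itgb1 as the fibronectin receptor, went from 11.0 ± 0.990 to 21.01 ± 2.56 FPKM (limma adjusted p 0.00236). Cd44, a receptor of osteopontin and hyaluronan, went from 1.29 ± 0.218 to 2.49 ± 0.172 FPKM (adjusted p 0.00419). Itga9, whose integrin binds tenascin C and osteopontin, was at 6.72 ± 0.979 and 11.5 ± 3.51 FPKM (adjusted p 0.0395), with Ctrl replicates 1 (0.113), 2 (0.0604) and 3 (0.1005) and cKO replicate 1 (0.0732) each needed for the call. The thrombospondin receptor genes Cd36, also a fatty acid carrier, and Cacna2d1, a calcium channel subunit, fell to 0.663 and 0.630 times the Ctrl mean (adjusted p 0.00850 and 0.00600). Of 7 tested further ligands of the TGF-beta family, Inhba, which encodes the activin A subunit, rose from 0.718 ± 0.435 to 5.20 ± 1.05 FPKM (adjusted p 0.00156), while Bmp4 and Bmp6 fell to 0.526 and 0.479 times the Ctrl mean (adjusted p 0.00457 and 0.00244).

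**Figure D4:**
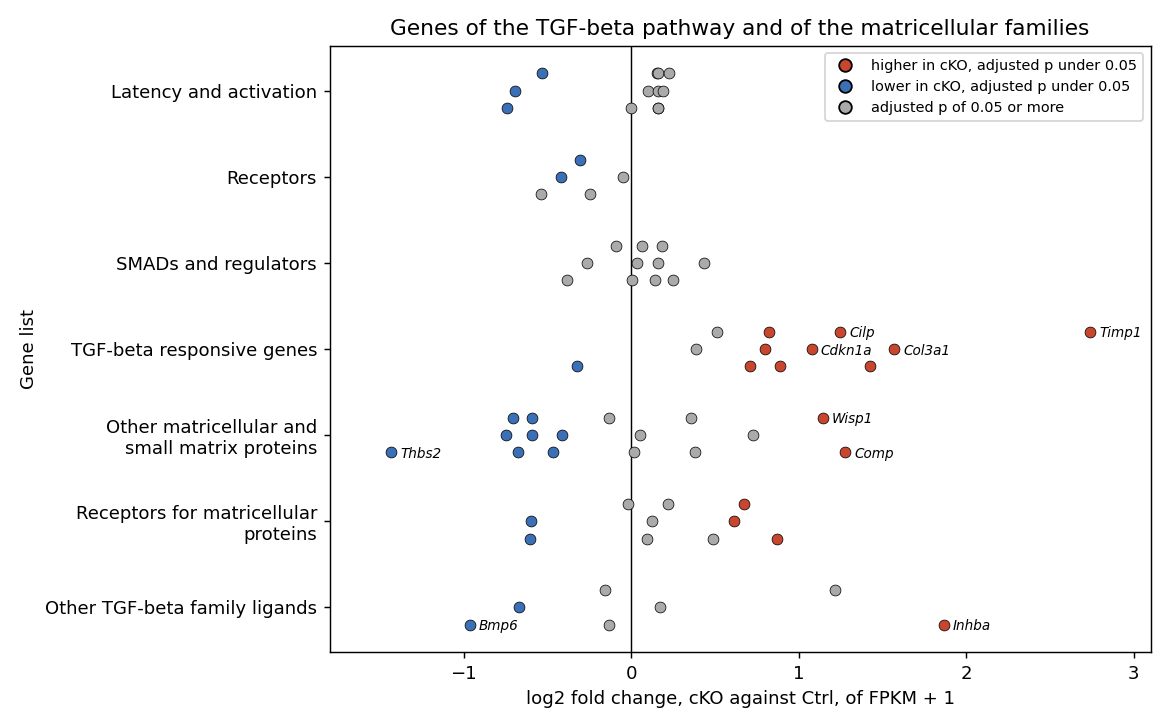
Log2 fold change of FPKM + 1 in cKO against Ctrl hearts for each tested gene of 7 lists, 1 point a gene, offset vertically only to separate points. The responsive genes hold 9 red points (higher, adjusted p under 0.05) and 1 blue (lower), and the SMADs and regulators hold neither.

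Cell type markers were measured beside these genes, since fewer cells of a type and less RNA per cell cannot be told apart in bulk tissue. Of 10 fibroblast markers, 2 were higher and 1 lower, and their summed level was 742 to 762 FPKM in Ctrl and 477 to 641 FPKM in cKO hearts. Gsn alone made up 60.6% of that sum in Ctrl on average and was not called (limma adjusted p 0.0584), and without it the sums were 282 to 310 FPKM in Ctrl and 242 to 276 FPKM in cKO. Pdgfra (adjusted p 0.708 by limma) and Tcf21 (0.367), which define cardiac fibroblasts, were at 4.77 ± 0.360 and 4.70 ± 0.691 FPKM in Ctrl against 4.61 ± 0.173 and 4.07 ± 0.689 FPKM in cKO. Col1a1, a TGF-beta responsive gene, and Mfap5 were the markers that rose, and Dcn the marker that fell. Macrophage and leukocyte markers summed to 306 to 419 FPKM in Ctrl and 244 to 361 FPKM in cKO, with 1 of 8 tested higher (Cx3cr1) and 1 lower (Csf1r). Cx3cr1, at 0.381 FPKM on average in Ctrl and 1.10 FPKM in cKO, passed the filter only through the cKO hearts. Ptprc and Ccr2 were below the filter.

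The other lists gave lower or variable levels. Endothelial markers fell in 5 of 8, with sums of 242 to 259 FPKM in Ctrl and 159 to 163 FPKM in cKO, and cardiomyocyte markers in 6 of 10. Smooth muscle and myofibroblast markers summed to 148 to 168 FPKM in Ctrl and 96.2 to 124 FPKM in cKO. Of 7 tested, 1 rose (Acta2) and 2 fell (Mylk and Rgs5), and Tagln was at or under 0.340 FPKM in each heart. Acta2, also on the list of responsive genes, passed narrowly (limma adjusted p 0.0453). Its level was 24.2, 14.3 and 17.5 FPKM in Ctrl and 31.3, 50.8 and 25.9 FPKM in cKO replicates 1, 2 and 3. Its call under the alternatives is not given here. Epicardial and mesothelial markers summed to 2.15 to 8.01 FPKM in Ctrl and 1.88 to 5.94 FPKM in cKO, with 0 of 4 tested past the threshold, and atrial markers had 0 of 6, both also with 0 before adjustment and by voom. None of the listed markers was at 0 in all 6 hearts. The part of these markers in the changes of the 10 genes was not tested.

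**Figure D5:**
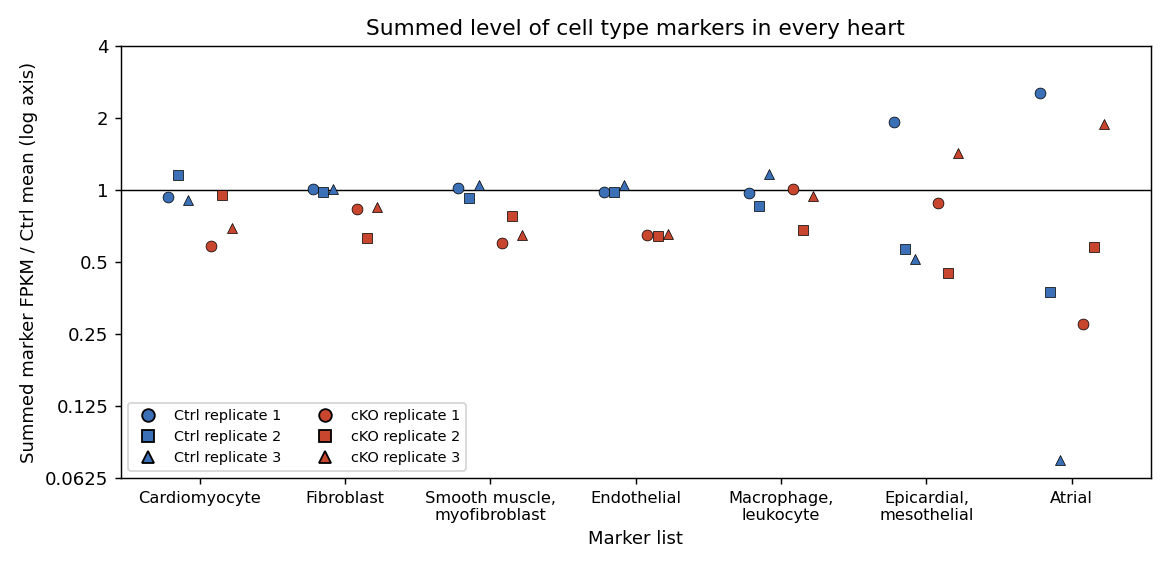
Summed FPKM of 7 marker lists in each heart, divided by the mean of the Ctrl hearts (log axis), with color for group and shape for replicate. The endothelial sums are lower in each cKO heart (159 to 163 FPKM) than in any Ctrl heart (242 to 259 FPKM), as are the fibroblast sums, and the atrial sums spread within both groups.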

How the data were processed

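RNA was sequenced from 6 hearts, 3 Ctrl and 3 cKO, grouped by their titles. Poly-A RNA was made into paired-end libraries, which the authors aligned with HISAT2 2.0.5 and counted reads per gene with featureCounts 1.5.0-p3 (versions also named in the submitters' processing notes). The deposited values are FPKM, which the authors derived from read counts and the length of each gene. The deposited gene length was taken as given, as an other, gene-level value. The processing notes name mm9, but 53499 of 54409 gene identifiers shared with GENCODE M21 had identical start and end in GRCm38, so coordinates are given as GRCm38. In 100% of values FPKM times length was a whole multiple of the library's step (tolerance 0.01 read), which gave the reads per gene.

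Genes whose average reached 0.5 FPKM were tested on log2(FPKM + 1) with limma 3.58.1 (R 4.3.3; lmFit, eBayes with trend, two-sided, no covariates), adjusted by Benjamini-Hochberg over all genes tested, with a threshold of 0.05. The scale understates changes of low genes. The authors' own test used DESeq2. The limma p-values set the difference between the groups against the spread between these hearts, each gene's variance being drawn toward that of genes of like level. The fit was also run on simulated reads with known changes, drawn independently for each gene, so shifts shared by many genes were not covered. Alternatives were other pseudocounts, filters, scalings, variance models, a replicate block and leaving out hearts. The named genes were the 10, the Mrps5 check, up to 3 called genes in each direction per pathway list, a preset group of receptors, SMADs and responsive genes (1 gene of which is not reported here), and the 3 patterns most like Tgfb2. Genes named outside this rule were chosen after their values were seen: Ltbp3 and Thbs3 to complete their families, Smad6, Skil, Tnr and Tnn, and the cell type markers named singly. Members and lists were chosen with earlier results of these data known.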

Additional observations from a re-analysis of the deposited data

How the results depend on the processing

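Over 15 alternatives each, the 10 genes gave 150 comparisons, of which 140 kept direction and side of the threshold. Tgfb2, Ltbp2, Postn, Thbs4 and Tnc kept their calls in all 15, Thbs1 lost its call in 4 (adjusted p 0.0110 to 0.0744 over its alternatives) and Spp1 in 1 (0.00334 to 0.0633). The log2 fold change of Ltbp2 went from 0.76 to 1.55 by voom on recovered reads. Leaving out 1 replicate left 6 or 7 of the 10 genes higher and 0 lower, and the difference in their summed FPKM, 30.5, ranged from 28.7 to 33.3. Over all genes such fits gave 1396 to 1977 higher and 1423 to 2011 lower genes, and over the pathway lists 8 to 17 higher and 10 to 15 lower. Without both Ctrl replicate 1 and cKO replicate 2, 1396 genes were higher and 1434 lower, and 11 pathway genes were lower. Eng (limma adjusted p 0.127), Acvrl1, Tgfbi, Nov (0.0979), Tnxb and Itga9 lost their calls in that fit. Without the filter 9 pathway genes were higher, where 26855 genes were tested instead of 12944, and Ctgf (adjusted p 0.0892), Nov (0.0646), Tnxb (0.0514) and Itga9 (0.0987) lost their calls. When each heart was scaled to its reads outside mtDNA-encoded genes, in place of the deposited library size, 2717 genes were higher and 1609 lower. Of the calls 62.8% were then higher, against 48.9% with the deposited scaling. That setting gave 20 pathway genes higher and 13 lower, and moved the median of all genes from -0.02 to 0.05.

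Signs changed for 5 genes with log2 changes near 0. Leaving out 1 replicate, Tgfb1 ranged from -0.0027 (without Ctrl replicate 2) to 0.147, Fn1 from -0.0835 (without cKO replicate 2) to 0.121, Smad2 from -0.0254 (without Ctrl replicate 2) to 0.0757, Smad4 from -0.0396 (without Ctrl replicate 2) to 0.0483 and Tgfbr1 from -0.113 to 0.0775 (without cKO replicate 2). Without both Ctrl replicate 1 and cKO replicate 2, Fn1 was at -0.0465 and Tgfbr1 at 0.0814, and Tgfbr1 was at 0.0259 with mtDNA-encoded genes left out of the scaling. None of these passed the threshold. With the replicate block, 8 of the 10 genes were higher, Tgfb3 being added (adjusted p 0.0278, range over its alternatives 0.0278 to 0.315), Tgfbr3 passed as lower (0.0208), Acvrl1 (0.0577), Tgfbi (0.0569) and Ctgf (0.0639) lost their calls, and 1874 genes were higher and 1982 lower in all. Same-numbered hearts correlated by -0.06, 0.17 and -0.01 in their deviations from group means. The study's methods call the controls littermates, but the labels name no pairs. These correlations cannot decide whether same-numbered hearts shared a litter. The causes of these changes were not tested. With 17 to 43 reads a heart for Spp1 and Tnc in Ctrl, depth limits their ratios.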
